A study of Mus musculus with 10 samples.

Results

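Transcription factors that build the thalamus and the hypothalamus were measured in the forebrains of embryos from dams on different chow diets. The 9 genes are Gbx2, Tcf7l2, Lhx9, Olig3, Rora and Prox1, grouped here with the thalamus, and Sim1, Otp and Nr5a1, grouped with the hypothalamus. They were taken by name from a table of 21225 probe sets, each standing for 1 Entrez gene, and all 9 were found. Total RNA of the forebrain was hybridized to 1 array per embryo, at embryonic day 15.5, with 5 embryos of dams on pelleted chow (a commercial Teklad diet) and 5 of dams on powdered chow (a purified Bioserv diet). Each embryo came from a different litter. Dams of both groups were C57Bl/6J females mated with Ts1Cje males, a mouse model of Down syndrome, and all 10 embryos were genotyped as wild-type. Dams received their diet from the start of breeding. The labels give no sex, slide or scan date, and pelleted chow embryos carry the animal numbers 05, 07, 09, 11 and 15 while powdered chow embryos carry 87, 88, 108, 111 and 115, so diet and any difference in preparation cannot be told apart.

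The thalamus relays sensory and motor signals to the cerebral cortex, and the hypothalamus below it governs hormones, feeding, body temperature and stress responses. Both arise from the posterior and ventral forebrain, where a small set of transcription factors first divides the neuroepithelium and then gives each nucleus its identity. In the thalamus, Olig3 acts in dividing progenitors, while Gbx2, Lhx9, Tcf7l2 and Rora act mostly in neurons that have left the cell cycle. In the hypothalamus, Sim1 and Otp are needed for the neurons of the paraventricular and supraoptic nuclei, and Nr5a1 for the ventromedial nucleus.

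Values are log2 expression values as deposited, so a difference of 1 is a doubling, and differences are given as powdered minus pelleted chow. Each probe set was compared with limma and p-values were adjusted over all 21225 probe sets by the Benjamini-Hochberg method. A gene passed the test at an adjusted p under 0.05. The methods call a gene differentially expressed when its fold change exceeds 1.5, its raw p is below 0.001 and its false discovery rate is below 0.01, and those limits were applied as well. On these arrays the pelleted chow embryo 05 stood apart on the second principal component, with a score of 24.1 where the other 9 lay between -10.6 and 12.5. Values without it are given where they change a result.

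The DNA just before the start of transcription is shown for the 2 members that passed the test, Gbx2 and Tcf7l2, and for Rora with its relative Rorb, whose differences lay farthest apart of all pairs of relatives compared here. RefSeq (GRCm38.p6) holds such windows for 8 of the 9 members, all but Nr5a1, with 1 window for 6 of them and 2 for Tcf7l2 and Prox1. Each printed run is the 250 bases upstream of a start site, read 5′ to 3′ on the gene's own strand. The runs lie at chr1:89931177-89931426 on the minus strand (Gbx2), chr19:55741560-55741809 on the plus strand (Tcf7l2, the more upstream of its windows), chr9:68653536-68653785 on the plus strand (Rora) and chr19:19111197-19111446 on the minus strand (Rorb, the more upstream of its windows). Capitals mark ACGTG on either strand, the core letters bound by Sim1 with its partner Arnt2 and by related factors.
Gbx2: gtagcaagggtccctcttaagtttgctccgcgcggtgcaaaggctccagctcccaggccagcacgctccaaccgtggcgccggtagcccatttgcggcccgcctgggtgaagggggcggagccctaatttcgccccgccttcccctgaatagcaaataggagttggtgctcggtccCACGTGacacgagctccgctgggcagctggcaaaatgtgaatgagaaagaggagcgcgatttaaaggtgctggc
Tcf7l2: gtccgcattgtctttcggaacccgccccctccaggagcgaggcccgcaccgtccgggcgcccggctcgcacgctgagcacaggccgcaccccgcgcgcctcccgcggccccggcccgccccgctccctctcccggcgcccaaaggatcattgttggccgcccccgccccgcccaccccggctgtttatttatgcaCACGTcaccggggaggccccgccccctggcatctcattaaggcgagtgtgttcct
Rora: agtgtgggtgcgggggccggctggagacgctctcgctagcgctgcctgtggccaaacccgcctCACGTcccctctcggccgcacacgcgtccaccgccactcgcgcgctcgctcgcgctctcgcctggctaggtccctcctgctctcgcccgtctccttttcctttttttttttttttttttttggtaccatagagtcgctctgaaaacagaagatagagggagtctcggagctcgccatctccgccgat
Rorb: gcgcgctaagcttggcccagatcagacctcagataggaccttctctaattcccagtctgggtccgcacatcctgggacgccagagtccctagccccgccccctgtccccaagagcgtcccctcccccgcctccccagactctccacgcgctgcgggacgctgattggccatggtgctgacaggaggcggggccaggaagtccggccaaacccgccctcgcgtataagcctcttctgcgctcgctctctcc
In Gbx2 the capitals are a pair of overlapping matches on opposite strands. Over the 10 windows of the members, 4 held ACGTG (those of Gbx2, Rora and Olig3 and the printed one of Tcf7l2), where 16.6% of all 32851 windows of the same length held it. CTTTGA, the core letters of TCF and LEF factors such as Tcf7l2, was in 0 of the 10 windows and in 13.8% of all. AGGTCA, the core of sites bound by Rora and Nr5a1, TAATTA, a site of many homeodomain proteins, and CATATG, an E-box that Olig factors bind, were also in 0 of the 10, against 14.0%, 4.84% and 3.46% of all windows. A match of letters in a window is no evidence of binding.

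Most of these regulators were at similar levels under both diets. Gbx2 fell and Tcf7l2 rose on powdered chow, by 0.31 and 0.23 on the log2 scale, and the other 7 members did not pass the test. Of the 9 members, 1 was lower and 1 higher, while 43.1% of all probe sets passed the test, 21.2% as higher and 21.8% as lower. The median size of the difference, in either direction, was 0.042 over the 9 members and 0.168 over all probe sets. At the study's limits 0 of the 9 were differentially expressed by limma or by the methods' t-test. Of all probe sets 8.27% met those limits by limma, 4.84% as higher and 3.43% as lower. A raw limma p under 0.05 was reached by 3 of the 9 members and by 10699 of all 21225 probe sets. The 95% interval of the difference lay inside a 1.5-fold change in either direction for all 9 members, its farthest bound being -0.47 for Gbx2.

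Gbx2, a homeobox gene needed for thalamic neurons to mature and to send axons to the cortex, was lower on powdered chow in every embryo. Its log2 values on pelleted chow were 8.13, 8.14, 8.15, 8.51 and 8.20 in embryos 05, 07, 09, 11 and 15, and on powdered chow 7.97, 7.98, 7.95, 7.83 and 7.87 in embryos 87, 88, 108, 111 and 115. The diets did not overlap, which was true of 1 of the 9 members and of 32.6% of all probe sets (16.9% higher and 15.7% lower on powdered chow). The difference was -0.31 (standard error 0.075, limma adjusted p = 0.00467), which leaves 0.807 of the pelleted chow level (95% interval 0.721 to 0.904). The exact permutation test over the 252 ways to divide the embryos gave a two-sided p = 0.00794, the smallest that 5 against 5 allow. Embryo 11 lay well above the other 4 on pelleted chow, and without it the difference was -0.24 (limma adjusted p = 0.00286).

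Tcf7l2, an HMG-box factor that joins beta-catenin at Wnt target genes and is abundant in thalamic and habenular neurons, was higher on powdered chow with some overlap. Pelleted chow values were 10.60, 11.08, 10.91, 10.90 and 10.85 in the same order of embryos, and powdered chow values 11.14, 11.17, 11.12, 11.04 and 11.04. Embryo 05 was the lowest of all, and embryo 07 was above powdered chow embryos 111 and 115, so 3 of the 5 powdered chow values lay above the pelleted chow range. The difference was 0.23 (standard error 0.077, limma adjusted p = 0.0259; two-sided exact permutation p = 0.0238), or 1.18-fold (95% interval 1.05 to 1.32). This call was near the threshold. It was lost without embryo 15, 87 or 88 (limma adjusted p = 0.0520, 0.0554 and 0.0591) but held without embryo 05 at a difference of 0.17 (limma adjusted p = 0.0413).

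The other thalamic members did not pass the test. Lhx9, a LIM-homeodomain gene of thalamic neurons that is also expressed in the midbrain, had values of 9.43, 9.98, 9.94, 9.43 and 9.60 on pelleted chow and 9.76, 9.70, 9.79, 9.76 and 9.59 on powdered chow. The spread was wide on pelleted chow (SD 0.27, n = 5) and narrow on powdered chow (SD 0.081, n = 5), and the powdered chow values all lay inside the pelleted chow range. The means differed by 0.042 (95% interval -0.19 to 0.28, limma adjusted p = 0.784). Olig3, a basic helix-loop-helix gene of thalamic progenitors, was 5.68, 5.40, 5.49, 5.49 and 5.33 on pelleted chow and 5.34, 5.67, 5.28, 5.35 and 5.67 on powdered chow. These values lie under the lower quartile of the probe set means (6.42), where a signal can be mostly background, and the table holds no detection calls. The difference was -0.013 (95% interval -0.21 to 0.19, limma adjusted p = 0.928).

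Rora, an orphan nuclear receptor of sensory thalamic nuclei and cerebellar Purkinje cells, was 8.62, 8.87, 8.86, 8.82 and 8.98 on pelleted chow and 8.83, 8.79, 8.73, 9.01 and 8.77 on powdered chow. Only embryo 05 was lower than the powdered chow range, and the means differed by -0.0057 (95% interval -0.17 to 0.16, limma adjusted p = 0.959). Prox1, a homeobox gene of the thalamus and habenula that also marks dentate granule cells, some cortical interneurons and lymphatic vessels, was 9.19, 9.04, 8.91, 9.17 and 8.91 on pelleted chow and 9.12, 9.10, 9.00, 9.14 and 9.19 on powdered chow. All powdered chow values lay inside the pelleted chow range, and the difference was 0.067 (95% interval -0.081 to 0.22, limma adjusted p = 0.460). In bulk tissue, fewer cells of a type and less RNA per cell cannot be told apart, for these genes and for all that follow.

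**Figure D1:**
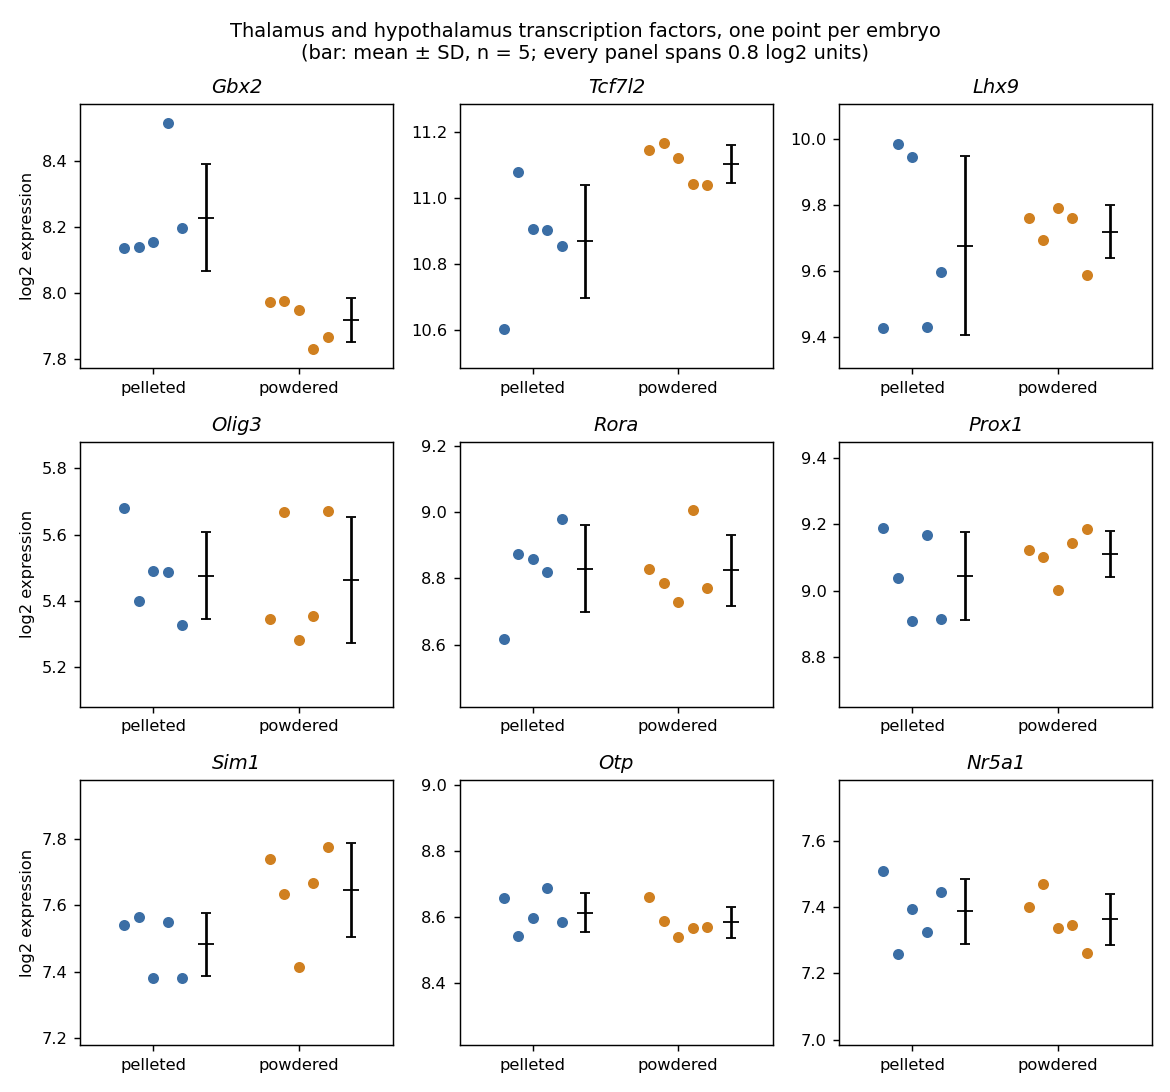
Log2 expression (y axis) of the 9 transcription factors in each embryo (points), by diet (x axis), with the mean and SD of 5 embryos beside the points. Every panel spans 0.8 log2 units. The diets are apart for Gbx2 alone, Tcf7l2 and Sim1 overlap in part, and Lhx9 spreads more widely on pelleted than on powdered chow.

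Among the hypothalamic members, Sim1 came closest to the threshold. Sim1, a basic helix-loop-helix factor with a PAS domain that forms a pair with Arnt2, had values of 7.54, 7.56, 7.38, 7.55 and 7.38 on pelleted chow and 7.74, 7.64, 7.42, 7.67 and 7.78 on powdered chow. Of the 5 powdered chow embryos, 4 lay above the pelleted chow range, and embryo 108 lay inside it. The difference of 0.16 had a 95% interval of 0.0044 to 0.32, a raw p = 0.0448 and an adjusted p = 0.0907 by limma, and a two-sided exact permutation p = 0.0794. Without embryo 108 the difference was 0.22 and passed the test (limma adjusted p = 0.0129), as it did with array quality weights (0.23, adjusted p = 0.0114). Of all probe sets 45.3% and 48.7% passed in these 2 settings. Sim1 did not pass in the other 17 of 19 alternatives run at an adjusted p under 0.05.
Otp, a homeobox gene that acts beside Sim1 in neuroendocrine neurons, varied least of the 9. It was 8.66, 8.54, 8.60, 8.69 and 8.58 on pelleted chow and 8.66, 8.59, 8.54, 8.57 and 8.57 on powdered chow, a difference of -0.029 (95% interval -0.14 to 0.081, limma adjusted p = 0.680). Nr5a1, the nuclear receptor also known as SF-1 that the pituitary and gonads share with the ventromedial hypothalamus, was 7.51, 7.26, 7.40, 7.33 and 7.45 on pelleted chow and 7.40, 7.47, 7.34, 7.35 and 7.26 on powdered chow. The difference was -0.024 (95% interval -0.16 to 0.11, limma adjusted p = 0.788), and both genes had overlapping diets.

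Embryos of the same diet did not rank alike across the members. On pelleted chow, embryo 05 was the lowest for 4 members (Tcf7l2, Lhx9 and Rora among them) and the highest for 3 (Olig3, Prox1 and Nr5a1). On powdered chow, embryo 108 was the lowest for 5 members. In some genes of several regions the pelleted chow embryos ranked much as they did for Lhx9. En2, a homeobox gene that marks the midbrain and anterior hindbrain, was 6.44, 7.74, 8.04, 6.48 and 7.40 in embryos 05, 07, 09, 11 and 15, and ran from 6.09 to 6.74 on powdered chow. Powdered chow values of Lhx9 ran from 9.59 to 9.79. Between the diets the means of Lhx9 differed by 0.042 and those of En2 by -0.77. Within pelleted chow, embryos 07 and 09 were the highest, and 05 and 11 the lowest, for both Lhx9 and En2. The same was true of 3 diencephalic genes chosen after their values were seen. Slc17a6, the vesicular glutamate transporter gene of thalamic and many other excitatory neurons, was 10.08, 10.50, 10.52, 10.20 and 10.34 in that order of embryos. Irx2 was 8.31, 8.93, 9.02, 8.57 and 8.74, and Sox14 was 7.28, 8.21, 8.23, 7.85 and 8.09. Other diencephalic genes ranked otherwise, with Neurog2 highest in embryo 05 (8.62) and Rorb in embryo 11 (9.42). The number of listed genes that share the ranking was not counted. The part of midbrain or other tissue in the Lhx9 values was not tested. In embryo 11, where Gbx2 was highest, En2 lay inside the powdered chow range while the midbrain genes En1 (7.34) and Slc6a3 (8.38) lay above all 5 of their powdered chow values. The part of midbrain or hindbrain tissue in the Gbx2 values was not tested either.

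**Figure D2:**
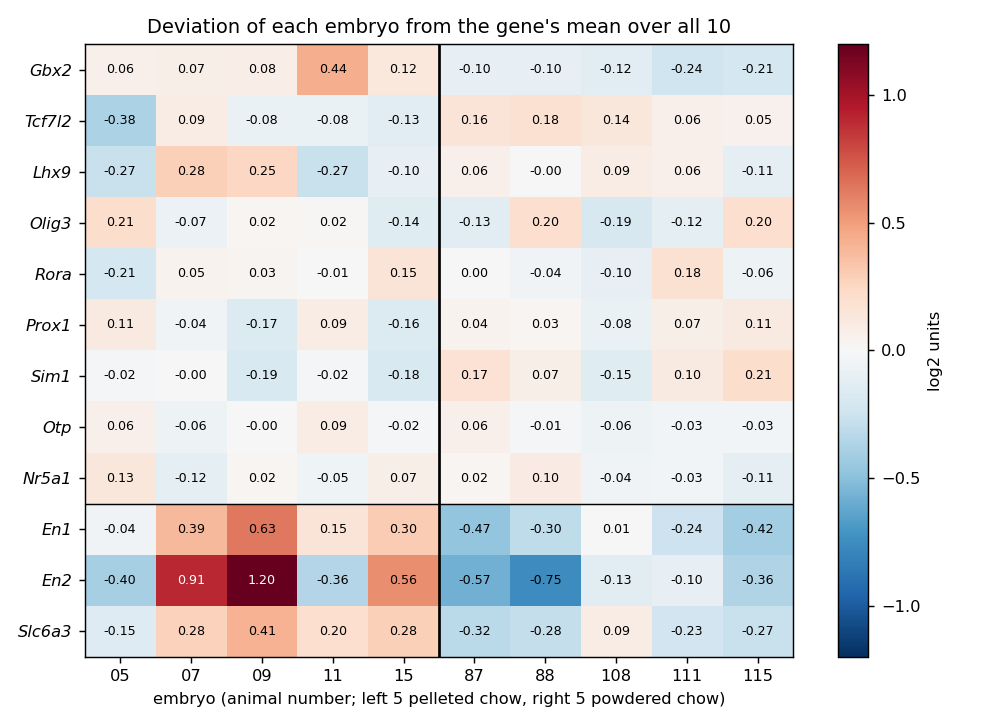
Deviation of each embryo (columns, animal numbers) from the gene's mean over all 10 embryos, in log2 units, for the 9 members (upper rows) and for the midbrain genes En1, En2 and Slc6a3 (lower rows). The row of Gbx2 changes sign between the diets, and Lhx9 is high in embryos 07 and 09, the embryos with the highest En2.

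Genes of the same families as the members were examined next. Of these 12 relatives, 4 rose, 2 fell and 6 did not pass the test, beside 43.1% of all probe sets that passed. Rorb, a relative of Rora that acts in sensory thalamic nuclei and in the neurons of cortical layer IV, had values of 9.01 to 9.42 on pelleted chow and 9.88 to 10.10 on powdered chow. It rose by 0.80 (standard error 0.074, limma adjusted p = 2.30e-06), or 1.74-fold, without overlap. Olig1, which acts with Olig2 in the oligodendrocyte lineage, ran from 8.58 to 9.05 on pelleted chow and from 8.18 to 8.38 on powdered chow, also without overlap. It fell by 0.61 (standard error 0.081, limma adjusted p = 5.19e-05). These are the 2 of 12 relatives that met the study's limits, which 8.27% of all probe sets met. Nr5a2, a relative of Nr5a1, rose by 0.24 (adjusted p = 0.0101) and Lhx2, a regulator of cortex and thalamus, by 0.20 (adjusted p = 0.0153), both by limma. The mean of Nr5a2 was under the lower quartile of all probe sets on both diets. Gbx1 fell with Gbx2, by 0.25 (limma adjusted p = 0.0108).

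Other relatives did not pass. Lef1, a TCF family member listed here with the thalamus, differed by -0.23 and Olig2 by -0.23 (limma adjusted p = 0.0677 and 0.0713). Both passed without embryo 05 (-0.32 and -0.29, limma adjusted p = 0.00142 and 0.0207). Over the 20 alternatives run at an adjusted p under 0.05, Lef1 passed in 6 and Olig2 in 5. Tcf7, Tcf7l1, Prox2 and Sim2 differed by -0.048, -0.11, 0.15 and 0.035 (limma adjusted p = 0.607, 0.322, 0.139 and 0.783). Prox2 passed in 1 of its 18 alternatives at an adjusted p under 0.05. The means of Prox2 and Sim2 were under the lower quartile of all probe sets on both diets.

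Whether a relative moved apart from its member was tested on the within-array difference of the 12 pairs, with the exact permutation test and adjustment over the 12. This test was added after values were seen. Relative to Rora, Rorb changed by 0.81 between the diets (standard error 0.13). Relative to Tcf7l2, Lef1 changed by -0.46 (standard error 0.069) and Tcf7l1 by -0.34 (standard error 0.082). These 3 pairs were without overlap between the diets. Each had a two-sided exact p = 0.00794, the smallest possible, and an adjusted exact p = 0.0317. They are to be read beside the 32.6% of all single probe sets that were without overlap. How often pairs of other genes move apart was not counted. Whether relatives part from their members more often than other genes do was therefore not tested. For Olig1 against Olig3 the difference was -0.59 (standard error 0.17, exact p = 0.0238, adjusted exact p = 0.0714), and the other 8 pairs did not pass either. Gbx1 and Gbx2, which fell together, differed by 0.058 (standard error 0.11, exact p = 0.683).

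**Figure D3:**
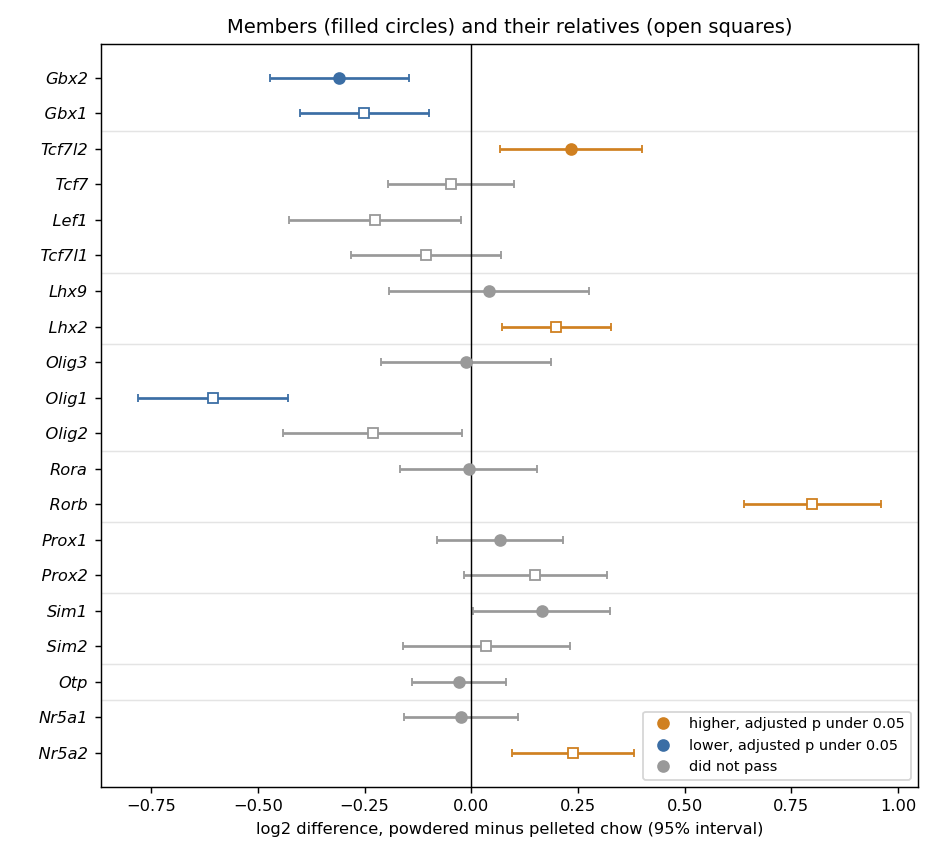
Log2 difference (x axis, powdered minus pelleted chow) with its 95% interval for the 9 members (filled circles) and 11 of their 12 relatives (open squares), grouped by family. Orange marks genes that rose, blue genes that fell and grey those that did not pass the limma test. The members lie between -0.31 and 0.23, and of the relatives plotted Rorb and Olig1 lie farthest from 0.

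A wider list of genes of the thalamus and its neighbours was read against the 43.1% of all probe sets that passed. Of 23 genes of the thalamus, habenula, pretectum, prethalamus and the boundary between them, 6 were higher, 2 lower and 15 did not pass, with a median difference of 0.042 (all probe sets -0.024). Besides Rorb, Neurog2, a proneural gene of thalamic and cortical progenitors, rose from 8.35 ± 0.21 to 9.02 ± 0.036 (SD, n = 5 each). Pax6, of prethalamus and cortical radial glia, rose by 0.25 (limma adjusted p = 0.0102), and Gata2, a selector of GABAergic neurons in the rostral thalamus and midbrain, fell by 0.41 (limma adjusted p = 1.68e-04). Several of these genes are active in the cortex as well, and Rorb, Lhx2 and Lef1 are counted both here and among the relatives. The number lower rested on single embryos, being 7 without embryo 05 and 1 without embryo 07, 09, 88 or 115.

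Regulators of the hypothalamus other than the members were counted in the same way. Of 26, 7 were higher, 1 lower and 18 did not pass, with a median difference of 0.045, where 21.2% of all probe sets were higher and 21.8% lower. Six6, a homeobox gene of the ventral hypothalamus and eye, rose by 0.31 (limma adjusted p = 2.16e-04) and Isl1, of arcuate neurons and also of the striatum, by 0.46 (adjusted p = 8.46e-04). The lower one was Arnt2, the partner of Sim1, and the part of its forebrain signal that comes from the hypothalamus was not tested. Arnt2 ran from 11.02 to 11.17 on pelleted chow and from 10.57 to 10.72 on powdered chow, a fall of 0.41 (standard error 0.054, limma adjusted p = 4.62e-05), without overlap. Isl1 and Lhx6 are counted both here and among the telencephalic markers. Nhlh2 is also counted among the diencephalic genes and Sim2 among the relatives. The number of hypothalamic regulators lower was 2 without embryo 05 or 108.

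Peptide and transmitter genes made by hypothalamic neurons moved in both directions. Of 18, 3 were higher, 6 lower and 9 did not pass, with a median difference of -0.19, so the number that passed was near the 43.1% of all probe sets. Within the lineage that Sim1 and Otp specify (Avp, Oxt, Crh, Trh and Sst), 1 of 5 was higher and 1 lower. Crh, the stress hormone that releases corticotropin, rose by 0.40 (limma adjusted p = 8.19e-05) at values of 4.52 to 5.12, far under the lower quartile. Trh, the releasing hormone for thyrotropin, was the lower one and was named after its values were seen, with a difference of -0.22 (limma adjusted p = 0.0216). Outside that lineage, Gal, the galanin gene, fell by 0.57 (adjusted p = 2.42e-06), Npy, of arcuate and cortical neurons, by 0.77 (adjusted p = 1.78e-05) and Adcyap1, of the ventromedial nucleus, by 0.56 (adjusted p = 2.18e-04), all by limma. All 5 powdered chow values of Gal (6.32 to 6.37) lay under the lower quartile of the probe set means (6.42). The number of peptide genes lower was 10 without embryo 108.

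Partners and targets of Tcf7l2 in Wnt signaling were split. Of 16, 4 were higher, 4 lower and 8 did not pass, with a median difference of -0.047, again near the share of all probe sets. Axin2 and Nkd1, feedback inhibitors that Wnt signaling turns on in many tissues, rose by 0.32 and 0.27 (limma adjusted p = 3.53e-04 and 0.00103). Lgr5, another Wnt target, differed by -0.34 (limma adjusted p = 0.00280) and was named after its values were seen. Of the 7 targets listed, 2 were higher and 1 lower. Of the 4 coactivators listed, 1 was higher and 2 lower. Pygo1, a coactivator of beta-catenin, and Tle3, a corepressor of TCF factors, fell by 0.37 and 0.28 (limma adjusted p = 1.74e-04 and 0.00267).

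**Figure D4:**
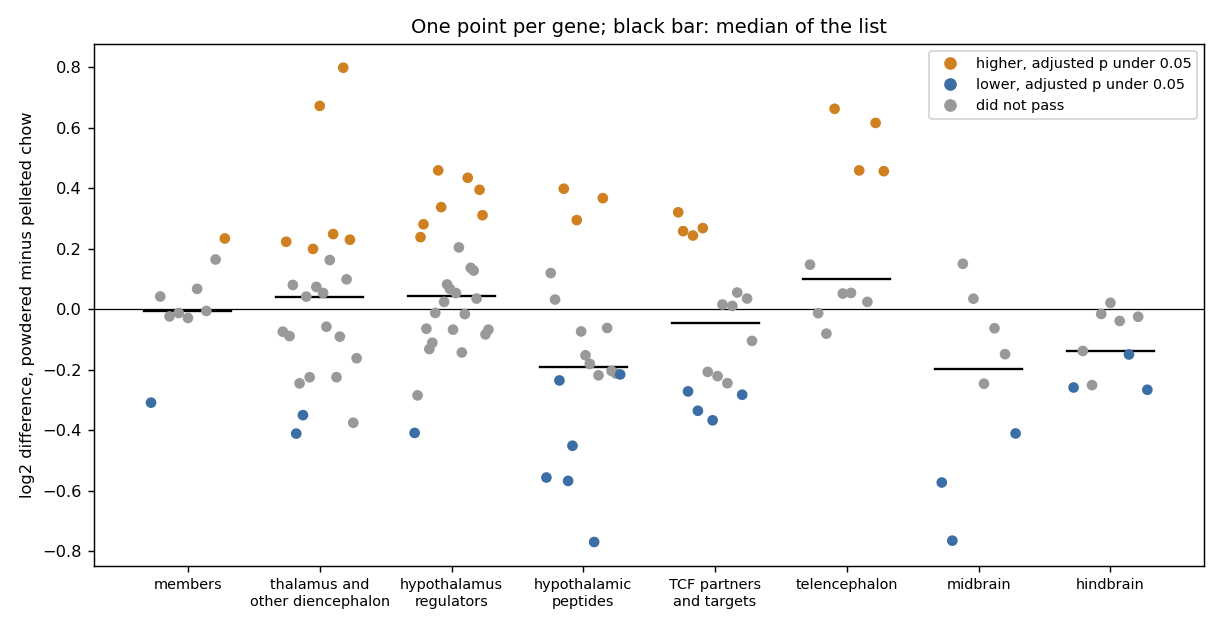
Log2 difference (y axis, powdered minus pelleted chow) of each gene (points) in the lists named on the x axis, with the median of each list as a black bar. The 9 members lie between -0.31 and 0.23, Npy is the lowest hypothalamic peptide gene at -0.77 and Rorb the highest diencephalic gene at 0.80.

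The label of the tissue was checked against markers of brain regions. Of all probe sets 43.1% passed the test, 21.2% as higher and 21.8% as lower. The number that passed in each list below was near or under that 43.1%. A raw limma p under 0.05 was reached by 10699 of all 21225 probe sets. Emx2, a homeobox gene of the developing cortex, differed by -0.081 (limma adjusted p = 0.484), with a mean of 8.31 over all 10 embryos. Of 10 telencephalic markers 4 were higher and 0 lower (10 tested by limma, 4 at a raw p under 0.05), led by Tbr1 and Neurod6 of cortical neurons (0.46 and 0.62), and the list mean ran from 9.27 to 9.53 on pelleted and from 9.60 to 9.72 on powdered chow. Of 8 midbrain markers 0 were higher and 3 lower (8 tested by limma, 4 at a raw p under 0.05), with list means of 7.59 to 8.04 and 7.50 to 7.77. The lower ones were En1, En2 and the dopamine transporter gene Slc6a3, at -0.57, -0.77 and -0.41. Of these 8 midbrain markers 0 were without overlap between the diets, against 32.6% of all probe sets. Of 9 hindbrain markers 0 were higher and 3 lower, with list means of 6.65 to 6.74 and 6.45 to 6.77. They included Hoxd3 (-0.27) and Atoh1 (-0.26), while Hoxb2 differed by -0.039. The diets overlapped for Hoxd3 and for Atoh1. The other lower one, Hoxb3 (-0.15, limma adjusted p = 0.0475), was without overlap, as were 32.6% of all probe sets. The hindbrain list means lay near the lower quartile of the probe set means (6.42), and the powdered chow mean of Atoh1 (6.34) lay under it. How much differences in these regional markers contribute to the values of Gbx2, Tcf7l2 and the listed genes was not tested.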

How the data were processed

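Forebrain RNA of 10 wild-type embryos was hybridized to Affymetrix Mouse Gene 1.0 ST arrays. The deposited values are log2 expression values, which the authors made with RMA (background correction, quantile normalization and summarization) on MBNI custom CDF version 15. Raw arrays were not used here. Symbols came from RefSeq gene IDs or the platform annotation for 20768 of 21225 probe sets, and the other 457 were tested unnamed. Across arrays the lower quartile was 6.33 to 6.53. The median standard error of a difference was 0.0723, and the number of arrays limits this precision.

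Sample titles gave the groups. Each probe set was fitted in limma without covariates (lmFit, then eBayes) and p-values were adjusted over the whole table by Benjamini-Hochberg. Single values were tested by exact permutation. The methods state 1 embryo per litter. Alternatives tried were the t-test of the methods, Welch's t-test, limma with a trend and robust prior, array quality weights, 3 further normalizations, 2 filters on dim probe sets, a stricter limit, and fits without single arrays or without embryos 05 and 07. The members and lists were chosen with earlier results of these data known, and the test of relatives against members was added after values were seen. Named genes were all members and relatives, the 4 lowest p of each further gene list, the 2 lowest p of each marker list with defining genes such as Emx2, En2 and Hoxb2, and the 2 genes most like each member. Single values of some of these genes are not reported here, while the counts of their lists include them. Trh, Lgr5, Slc17a6, Irx2, Sox14 and Hoxb3 fall outside this rule. Hba-a1 was not analysed here. Sequences are from RefSeq. Scripts were tested on simulated data. R 4.3.3, limma 3.58.1 and Python 3.11.15 were used.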

Additional observations from a re-analysis of the deposited data

Results flagged for a closer look

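An embryo far from the other 4 of its diet was looked for in 60 named genes under both diets, by setting its gap to the nearest value against the whole range of the group (Dixon's test, critical value 0.71). Chance flags about 1 in 20 groups, and 7 of 120 groups were flagged. Among the members this was Gbx2 alone, whose pelleted chow embryo 11 was at 8.51 with the next value at 8.20. The same embryo was high for Tcf7 (7.70, next 7.43) and for Arnt2 (11.17, next 11.05). Embryo 05 was low for Lef1 (8.06, next 8.44), embryo 15 low for Crh (4.52, next 4.62) and embryo 07 low for Lhx3, a pituitary marker (6.86, next 7.05). On powdered chow, embryo 108 was high for Slc6a3 (8.26, next 7.94).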

How the results depend on the processing

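Gbx2 remained lower past the threshold in every alternative run, with differences of -0.37 to -0.24. The number of members higher was 0 with Welch's t-test (Tcf7l2 adjusted p = 0.0805) and at an adjusted p under 0.01, and 2 with array quality weights, which added Sim1. Leaving out 1 array gave 0 to 2 members higher, 1 lower and 1 to 2 without overlap (2 without embryo 07 or 108). Without embryos 05 and 07 together, 2 members were without overlap. Among the members and relatives, only differences that did not pass the test in either setting changed sign. With array quality weights Lhx9 was at -0.072, Olig3 at 0.067 and Otp at 0.0032, with quantile normalization Olig3 at 0.012, with cyclic loess Olig3 at 0.010 and Nr5a1 at 0.014, and without embryos 05 and 07 Olig3 at 0.029. Leaving out 1 array gave -0.020 to 0.12 for Lhx9, -0.064 to 0.038 for Olig3, -0.059 to 0.032 for Rora, -0.056 to 0.0070 for Nr5a1, -0.074 to 0.012 for Tcf7 and -0.021 to 0.11 for Sim2. Single genes of the other lists were not run under the alternatives. Among diencephalic genes the number lower was 1 at an adjusted p under 0.01, with Welch's t-test and with the methods' t-test, 7 with array quality weights, 4 with the filter above the lower quartile and 6 without embryos 05 and 07. The number higher was 2 at an adjusted p under 0.01. Leaving out 1 array gave 1 to 7 lower (7 without embryo 05) and 4 to 6 higher. Hypothalamic regulators lower numbered 3 with array quality weights and 1 to 2 without 1 array. Peptide genes numbered 0 higher and 2 lower with the filter above the median, which tests fewer genes, and 4 to 10 lower without 1 array (10 without embryo 108). The cause of the other changes was not tested. The median of all probe sets was -0.024 as deposited and -0.032 to -0.0074 under other normalizations. No paired analysis was possible because the diets share no animal numbers.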

Other observations

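Some marker lists not described above concern further cell types. Their counts are to be read beside the 43.1% of all probe sets that passed, 21.2% as higher and 21.8% as lower. Counts at a raw limma p under 0.05 are to be read beside 10699 of all 21225 probe sets. Prox1 is also a gene of lymphatic vessels, and of 5 endothelial and lymphatic genes 2 were higher and 0 lower by limma, both of them general endothelial genes (2 at a raw p under 0.05). The list mean ran from 8.51 to 8.69 on pelleted and from 8.65 to 8.73 on powdered chow. Of 6 genes that share the dentate gyrus or caudal ganglionic eminence with Prox1, 1 was higher and 2 lower. Of 6 meningeal genes 4 were higher and 0 lower (4 at a raw limma p under 0.05), with list means of 8.37 to 8.61 and 8.68 to 8.86. Red cell genes were higher in 2 of 4, microglial genes higher in 2 and lower in 2 of 6. Markers of the pituitary, which expresses Nr5a1, were lower in 1 of 7 and retinal markers lower in 1 of 3, with 0 higher in either list (1 at a raw limma p under 0.05 in each). The part of these cells in the members' values was not tested.

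The genes whose profile over the 10 arrays lay closest to each member were found by the mean absolute difference after centring each gene on its own mean. For Gbx2 these were Scmh1 and Camk2a (0.0273 and 0.0310 log2 units), and for Tcf7l2 Coprs and Sult4a1 (0.0414 and 0.0441). For Lhx9 they were Crnde and Ncam2 (0.0721 and 0.0821), for Olig3 Cdc20b and Fyb2 (0.0593 and 0.0594) and for Rora Cpne8 and Sdhaf2 (0.0150 and 0.0375). Prox1 lay closest to Skp2 and Lpp (0.0324 and 0.0385), Sim1 to Cgas and Serhl (0.0456 and 0.0458), Otp to Trib1 and Cracd (0.0269 and 0.0276) and Nr5a1 to Krtap19-5 and Olfr972 (0.0318 and 0.0367). The table offers 20768 named genes to choose from and all are read from the same 10 arrays, so this likeness is a description.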
